A study of Mus musculus with 4 samples.

Results

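The classical antiviral interferon-stimulated genes studied here were a fixed list of 10: Isg15, Usp18, Mx1, Mx2, Rsad2, Cmpk2, Bst2, Ifi44, Xaf1 and Parp14. They were chosen by name, and all 10 were found in the RefSeq gene table, next to 21887 protein-coding genes on the primary chromosomes. The table classes 8 of them as protein-coding and 2, Mx1 and Mx2, as transcribed pseudogenes. The cells were macrophages of 8-week-old C57BL/6 mice, drawn into the peritoneum with thioglycollate broth and made adherent in dishes. They then received lipopolysaccharide (LPS), a component of bacterial cell walls, or phosphate-buffered saline (PBS) for 24 h. Chromatin immunoprecipitation sequencing was done for 2 histone marks, trimethylation of histone H3 at lysine 4 (H3K4me3) and at lysine 9 (H3K9me3). Each mark was profiled after LPS and after PBS, which gave 4 groups of 1 library. The labels name no transgene or mutant allele and do not say how many mice gave the cells. With 1 library a group there was no test between treatments, and every ratio below compares libraries. Ratios are log2 ratios of tags scaled by the filtered total of each library, and an interval in parentheses is a 95% Clopper-Pearson interval that covers counting error only.

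Type I interferon binds its receptor and activates a complex of transcription factors that includes STAT2 and IRF9 and binds the interferon-stimulated response element (ISRE) at promoters of antiviral genes. Macrophages make interferon beta when LPS reaches Toll-like receptor 4, so these genes are known to be transcribed after LPS. H3K4me3 marks the nucleosomes just downstream of active transcription starts and can reach into the body of strongly transcribed genes, while H3K9me3 is best known from heterochromatin. In C57BL/6 mice the Mx genes are transcribed but carry mutations that prevent a functional protein.

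The H3K4me3 libraries held 26748289 (LPS) and 29681491 (PBS) tags after the filter of the peak caller, the program that lists enriched regions, and the H3K9me3 libraries 28586946 and 27727997. All 9 macrophage markers examined carried an H3K4me3 peak within 1 kb of a gene end in LPS, and 8 of them in PBS as well. Of the 5 neutrophil markers 1 had a peak, with 21 tags in LPS only, and of the 4 markers of plasmacytoid dendritic cells 1 had a peak, with 84 tags in PBS only. The T cell markers Cd3e, Cd8a and Lck and, among the B cell markers, Cd79b and Ms4a1 had no peak, while 2 of 5 markers of each lineage had peaks in both lists (summed tags 273 in LPS and 359 in PBS for T cells, 300 and 392 for B cells). Of the 5 mesothelial and fibroblast markers 1 had a peak in both lists and 3 in PBS only, with summed tags of 207 and 534. The part of other cells in the results was not tested. The H3K4me3 libraries also differed in enrichment, with 28505 peaks that held 14.0% of the tags in LPS and 31398 peaks that held 17.8% in PBS; the part of this difference in the ratios and peak edges was not tested. A mark carried by more cells and more of it in each cell cannot be told apart here.

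The promoter sequences were searched for matches to the ISRE, to place them relative to the peaks described below. RefSeq promoters (GRCm38.p6, the same assembly as mm10) were matched for 6 of the 10: Isg15, Rsad2, Cmpk2, Bst2, Ifi44 and Xaf1. The ISRE core was searched as GAAANNGAAA on both strands in the 250 bases before the start. An element that departs from these letters was not counted, so a promoter without a match may still carry one. It was present in 3 of the 6 (Isg15, Bst2 and Rsad2), against 2.98% of 32851 promoters and 9 of 40 other interferon pathway genes with a promoter in the table. The interferon gamma element, searched as TTCNNNGAA on both strands, was found in 1 of the 6, at Bst2, where it overlaps the ISRE match, against 7.02% of all promoters. The 150 bases before the start, read along the gene's own strand, are printed for these 3 genes and for Ifi44, which had no peak near it; capitals mark each match to the ISRE core.
Isg15, chr4:156200819-156200968, minus strand: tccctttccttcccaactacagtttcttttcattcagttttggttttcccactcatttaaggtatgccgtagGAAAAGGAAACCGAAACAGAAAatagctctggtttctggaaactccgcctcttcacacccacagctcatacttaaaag
Bst2, chr8:71537473-71537622, minus strand: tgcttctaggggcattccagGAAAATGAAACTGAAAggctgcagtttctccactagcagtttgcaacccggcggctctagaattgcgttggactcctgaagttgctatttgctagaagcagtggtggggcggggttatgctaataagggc
Rsad2, chr12:26456453-26456602, minus strand: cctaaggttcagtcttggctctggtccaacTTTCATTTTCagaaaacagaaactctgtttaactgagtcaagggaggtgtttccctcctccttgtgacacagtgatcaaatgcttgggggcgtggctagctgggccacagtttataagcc
Ifi44, chr3:151749911-151750060, minus strand: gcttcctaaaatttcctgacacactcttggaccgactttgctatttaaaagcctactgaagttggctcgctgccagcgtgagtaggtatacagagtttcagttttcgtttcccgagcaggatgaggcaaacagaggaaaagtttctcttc
Isg15 carried 3 overlapping matches from 78 to 57 bases before the start, and Bst2 2 overlapping matches from 130 to 115 bases before it. The match at Rsad2, on the opposite strand, lay 120 to 111 bases before the start. The matches at Bst2 and Rsad2 lay inside an H3K4me3 peak of the PBS list and outside every peak of the LPS list. Those of Isg15 lay in no peak of either list.

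H3K4me3 peaks were assigned within 1 kb of either annotated gene end, at the end with more tags. Of the 10 antiviral genes, 7 had such a peak in both lists, 1 (Usp18) in PBS only, and 2 (Isg15 and Ifi44) in neither; among all protein-coding genes these shares were 60.1%, 3.14% and 35.5%. At the 4 genes with a matched promoter and peaks in both lists, the end that was used lay on the side of the annotated start. A gene without a listed peak was under the caller's limit in that library, and absence of the mark does not follow from it.

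**Figure D1:**
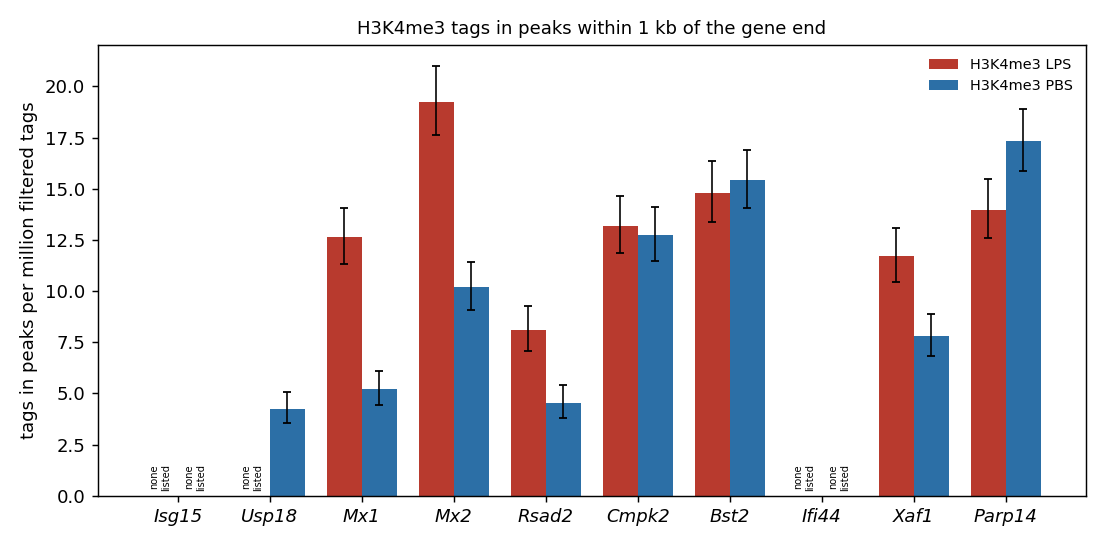
Bars give H3K4me3 tags in peaks within 1 kb of the gene end per 1000000 filtered tags, in LPS (red) and PBS (blue), 1 library each; error bars are exact 95% Poisson intervals for counting error. Mx1, Mx2, Rsad2 and Xaf1 stood higher in LPS, Cmpk2 and Bst2 were near level and Parp14 was lower, while Isg15 and Ifi44 had no listed peak.

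ISG15, a ubiquitin-like protein that is coupled to other proteins, and USP18, the protease that removes it and also restrains the interferon receptor, act on the same protein modification, and neither gene had a peak within 1 kb in both lists. Isg15 on chromosome 4 (156199424 to 156200818) is only 1395 bp long. The nearest H3K4me3 peak ended 1244 bp from it in LPS (459 tags over 3.13 kb) and 1058 bp from it in PBS (554 tags over 2.69 kb). That peak lies at an end of the neighbour Agrn. On the other side a peak (413 tags after LPS, 372 after PBS) lies at an end of Perm1. A window of 5 kb therefore gave Isg15 872 tags after LPS and 926 after PBS (LPS to PBS log2 ratio 0.06, -0.07 to 0.20), all of them in peaks that sit at ends of those neighbours.

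Usp18 on chromosome 6 (121245906 to 121270917) had 126 tags in a PBS peak of 1.44 kb that reached from 1064 bp outside the gene end to 375 bp inside it. The LPS peak, with 169 tags over 1.53 kb, began 1015 bp inside the gene and ended 2542 bp inside it. The LPS peak thus missed the 1 kb window by a few bases, and these peaks did not overlap. With a window of 5 kb the log2 ratio of LPS to PBS was 0.57 (0.23 to 0.92), and per covered kb 0.49. The summit, the caller's position of most tags, lay 125 bp inside the gene in PBS and 2134 bp inside it in LPS. Beyond the other end of Usp18 the lists had overlapping peaks, with 28 tags after LPS (0.64 kb) and 73 after PBS (0.97 kb). The PBS list had a further peak of 31 tags on the gene body.

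The Mx genes encode dynamin-like GTPases that block viruses, and both had more tags in LPS. At Mx1 on chromosome 16 (97447035 to 97462906), 338 tags over 3.34 kb were listed in LPS and 155 over 2.02 kb in PBS, a log2 ratio of 1.27 (0.996 to 1.56) or 2.42-fold. Mx2 (97536081 to 97560901) had 515 tags over 4.28 kb and 303 over 3.25 kb, a log2 ratio of 0.92 (0.71 to 1.12). These genes also had more tags per covered kb in LPS, with 101 against 76.7 at Mx1 and 120 against 93.4 at Mx2. They lie 73.2 kb apart, with Fam3b between them, and between their end windows the LPS list had 2 peaks of 70 tags in all and the PBS list none.

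Of the 7 genes with peaks in both lists, Mx1 was the only one at least 2-fold higher in LPS, and none was 2-fold higher in PBS. The 2-fold threshold was passed in LPS by 0.370% and in PBS by 3.65% of the 12705 protein-coding genes with peaks in both lists and at least 100 tags in all. These shares changed with the scaling. With the median of all genes set to 0, 112 genes were 2-fold higher in LPS and 151 in PBS, against 47 and 464 without it. On that scale 3 of the 7 (Mx1, Mx2 and Rsad2) passed 2-fold in LPS.

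Rsad2, which encodes viperin, an enzyme that makes a chain-terminating nucleotide, and Cmpk2, a mitochondrial nucleotide kinase that supplies it, are neighbours on chromosome 12 with their starts facing each other 12.7 kb apart. At Rsad2 (26442743 to 26456452), LPS gave 217 tags over 2.68 kb and PBS 135 over 1.21 kb, a log2 ratio of 0.83 (0.52 to 1.16). Cmpk2 (26469117 to 26479837) had nearly the same tags in both, 353 after LPS and 378 after PBS (log2 ratio 0.05, -0.16 to 0.26). The tags at Cmpk2 were spread over 3.32 kb in LPS and 1.64 kb in PBS. Its density was therefore 106 tags per covered kb in LPS against 231 in PBS, a log2 ratio of -0.97, and that of Rsad2 was 81.1 against 112, or -0.31. Between the pair each list had 1 further peak, of 47 tags after LPS and 50 after PBS.

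BST2, or tetherin, holds budding virus particles on the cell surface. Bst2 on chromosome 8 (71534255 to 71537472) carried 396 tags after LPS and 458 after PBS, a log2 ratio of -0.06 (-0.26 to 0.14). The tags fell in 1 LPS peak of 2.44 kb and in 2 PBS peaks of 3.16 kb together. The PBS peak on the outer side of the start, with 170 tags from 75 to 1147 bp outside the gene, was met by no LPS peak. It is the peak that holds the ISRE matches printed above.

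The last group joins genes with other roles. XAF1 antagonises an inhibitor of apoptosis, and PARP14 is an ADP-ribosyltransferase. Xaf1 on chromosome 11 (72301461 to 72313733) carried 313 tags over 2.24 kb after LPS and 232 over 1.95 kb after PBS, a log2 ratio of 0.58 (0.33 to 0.83), and 140 against 119 tags per covered kb. Parp14 on chromosome 16 (35831892 to 35871518) had 374 tags over 3.96 kb and 515 over 3.76 kb, a log2 ratio of -0.31 (-0.51 to -0.12). Parp14 was the gene closest to the median log2 ratio of the 13151 protein-coding genes with peaks in both lists, which was -0.36. Ifi44, an interferon-induced protein gene on chromosome 3 (151730922 to 151749910), lay 51.1 kb from the nearest H3K4me3 peak in LPS and 87.0 kb from the nearest in PBS.

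In the order of their tag ratios the 7 genes ran from Mx1 through Mx2, Rsad2, Xaf1, Cmpk2 and Bst2 to Parp14. Differences between neighbours in this order were set against their counting error (95% normal intervals, not adjusted for the 6 pairs). The order came from these same ratios, so every difference was above 0 by construction, and the intervals do not account for that. Xaf1 lay above Cmpk2 by 0.53 (0.21 to 0.85) and Mx1 above Mx2 by 0.36 (0.02 to 0.70). The other intervals included 0, with differences of 0.08 between Mx2 and Rsad2 (-0.29 to 0.45), 0.25 between Rsad2 and Xaf1 (-0.14 to 0.65), 0.11 between Cmpk2 and Bst2 (-0.17 to 0.40) and 0.25 between Bst2 and Parp14 (-0.02 to 0.52). The median log2 ratio of the 7 was 0.58. The ratio was above 0 at 5 of them, where 8.28% of all tested protein-coding genes were above 0, but that of Cmpk2 had an interval that included 0.

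**Figure D2:**
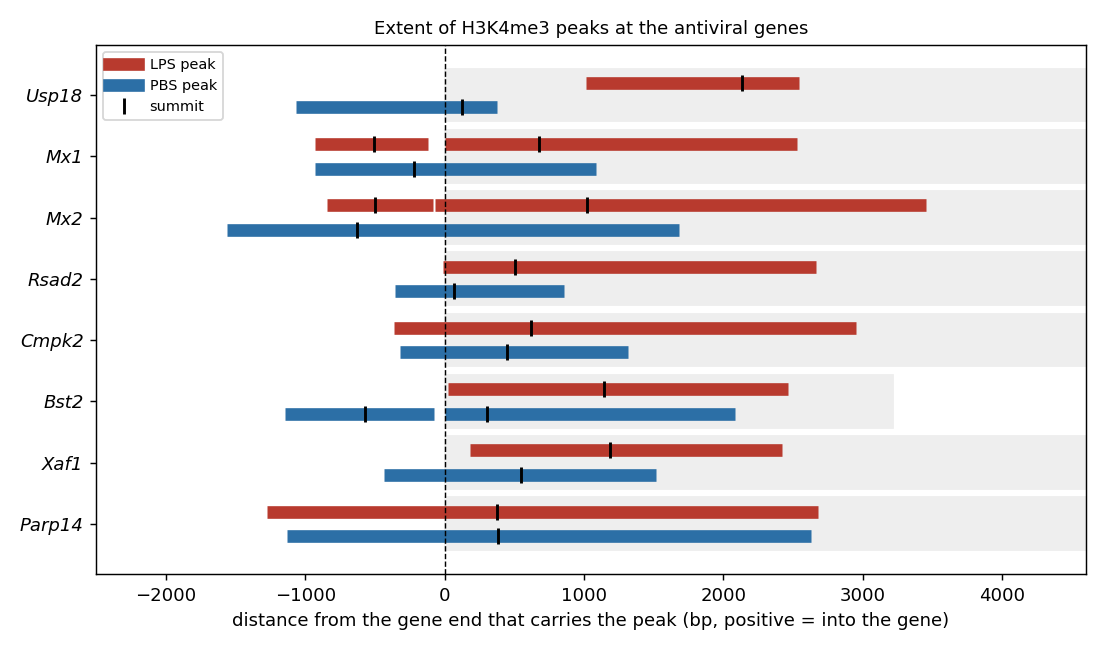
Horizontal bars give H3K4me3 peaks of the LPS (red) and PBS (blue) lists at 8 antiviral genes, by distance in bp from the gene end that carries them (dashed line; positive is into the gene, grey), with black ticks at summits. LPS peaks reach 2423 to 3452 bp into the 7 genes with peaks in both lists, and the LPS peak of Usp18 starts inside the gene.

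The peaks also differed in where they lay. The inner edge, the point farthest into the gene that a peak at the gene end reached, lay 2423 to 3452 bp inside the 7 genes in LPS and 854 to 2627 bp in PBS. At Rsad2 the inner edge lay 854 bp inside the gene in PBS and 2663 bp in LPS, a shift of 1809 bp. The shift was 1769 bp at Mx2 (1683 to 3452), 1634 bp at Cmpk2 (1319 to 2953) and 1445 bp at Mx1 (1087 to 2532). Xaf1 followed with 908 bp and Bst2 with 375 bp, while Parp14 had edges at 2627 and 2678 bp, a shift of only 51 bp.

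In all, the inner edge lay at least 500 bp further into the gene in LPS at 5 of the 7, and at none of the 7 in PBS. With a window of 5 kb the other end of Bst2 was used, and its edge lay at 3195 bp in LPS and 4364 bp in PBS (-1169 bp). That PBS edge belonged to the peak on the outer side of the start, beyond the gene of 3218 bp. Among the tested protein-coding genes 3.45% had a shift of at least 500 bp in LPS and 11.6% in PBS, with a median shift of -49 bp. Mx1, Mx2, Rsad2 and Cmpk2 lay between the 99.4 and 99.6 percentiles of these genes. Peaks were called in each library separately, so an edge is the point where the caller ended a peak in that library.

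**Figure D3:**
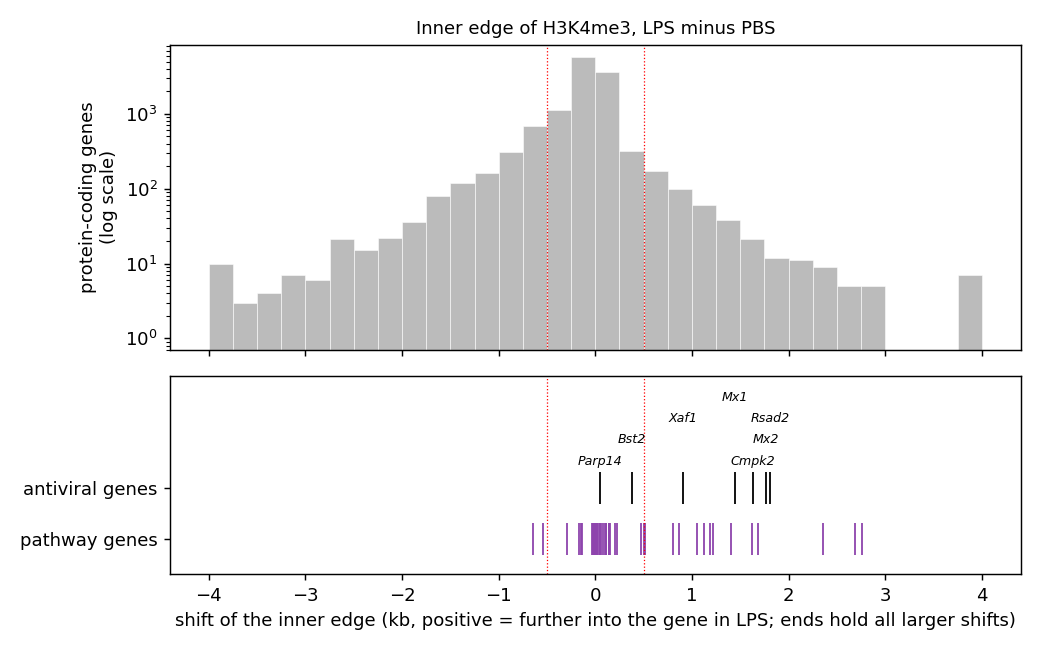
The upper panel counts tested protein-coding genes (log scale) by the shift of the inner H3K4me3 edge from PBS to LPS in kb, and the lower panel marks the 7 antiviral genes and 44 other interferon pathway genes on the same axis; dotted lines are at 500 bp. Most genes lie near 0, while Mx1, Mx2, Rsad2 and Cmpk2 lie above 1 kb.

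Summits lay further inward in LPS at most of the same genes. The LPS summit lay further into the gene by 1655 bp at Mx2, 894 bp at Mx1, 843 bp at Bst2, 639 bp at Xaf1, 438 bp at Rsad2 and 174 bp at Cmpk2, and differed by -5 bp at Parp14. A summit shift of at least 100 bp into the gene, found at these 6 of the 7, occurred at 14.5% of tested protein-coding genes. In PBS the summits of Mx1 and Mx2 lay outside the annotated gene end, at -219 and -629 bp, and in LPS they lay inside, at 675 and 1026 bp.

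The outer side differed as well. The PBS peak at Rsad2 began 353 bp outside the gene, and the LPS peak 11 bp outside it. At Xaf1 the PBS peak began 431 bp outside the gene and the LPS peak 182 bp inside it. At Mx1 and Xaf1 the gene end itself lay inside a PBS peak and outside every LPS peak, 2 of 7 against 9.43% of tested protein-coding genes. At Mx1 the end fell between a pair of LPS peaks that stopped 118 bp outside and 6 bp inside the gene. Parp14 and Cmpk2 kept similar outer edges, with 1276 and 365 bp outside the gene in LPS and 1132 and 316 bp in PBS.

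**Figure D4:**
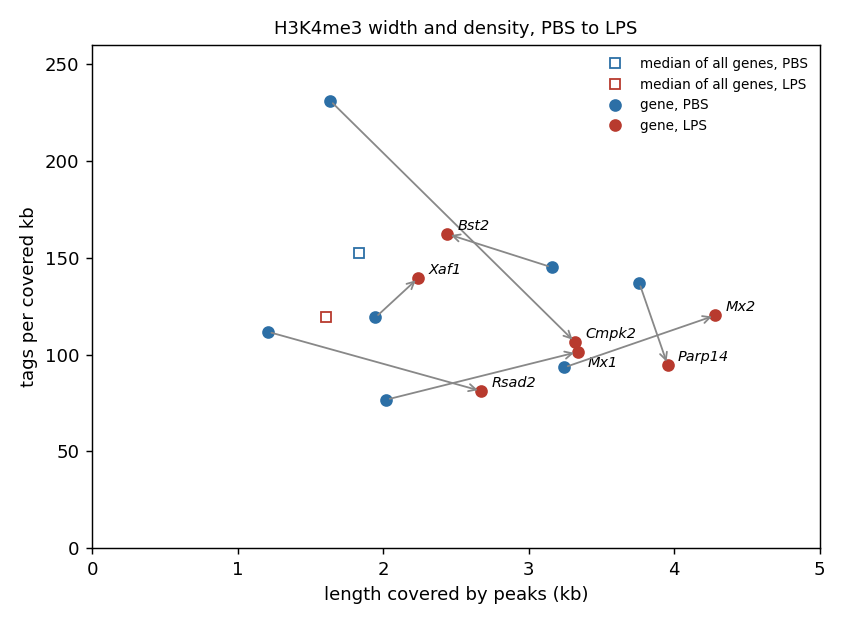
Each arrow leads from the PBS value (blue) to the LPS value (red) of a gene, with the length covered by H3K4me3 peaks (kb) on the x axis and tags per covered kb on the y axis; open squares are medians of all genes. Mx1, Mx2 and Xaf1 move to greater length and density, and Cmpk2 and Rsad2 to greater length and lower density.

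Width and density separated the genes further. Covered length was greater in LPS at 6 of the 7, all but Bst2, where 27.7% of tested protein-coding genes were longer in LPS. It was 2.21-fold greater at Rsad2, 2.03-fold at Cmpk2 and 1.65-fold at Mx1. In LPS the covered lengths of the 7 lay between the 75.7 and 97.4 percentiles of protein-coding genes with an LPS peak. In PBS they ranged from the 21.2 percentile at Rsad2 to the 94.1 percentile at Parp14. Tags per covered kb were lower in LPS at 3 of the 7 (Rsad2, Cmpk2 and Parp14), where 82.1% of tested protein-coding genes were lower. The 4 genes with a higher density in LPS were Mx1, Mx2, Bst2 and Xaf1, with log2 ratios from 0.31 at Bst2 to 0.55 at Mx1. Cmpk2 in PBS was the densest of these peaks, at the 92.3 percentile of tags per covered kb, and moved to the 39.0 percentile in LPS.

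The other interferon pathway genes, a list of 50, were examined the same way. Peaks were in both lists at 46, in PBS only at 3 (Ifit2, Ifit3 and Trim30a) and in neither at 1 (Ifi44l, the neighbour of Ifi44). Of the 44 tested, 5 passed 2-fold in LPS and none in PBS, and 16 had a ratio above 0. Among all tested protein-coding genes these shares were 0.370%, 3.65% and 8.28%, so none of 44 in PBS was near the general share. The median log2 ratio was -0.15. The inner edge lay at least 500 bp further inward from the end used in LPS at 14 (31.8%) and in PBS at 2, Ube2l6 and Ifitm3. These counts include edges that lay past the other gene end, at Socs1 in LPS and at Ifitm3 in PBS. The Ifitm3 edges were at 1149 bp in LPS and 1692 bp in PBS, in a gene from 141009590 to 141010744. Among all tested protein-coding genes, counted the same way, the inner edge lay that much further inward at 3.45% in LPS and 11.6% in PBS.

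The 5 genes past 2-fold in LPS were all effectors, and at each the inner edge lay more than 1 kb further into the gene in LPS. Parp11, another ADP-ribosyltransferase, carried 98 tags after LPS and 30 after PBS (log2 ratio 1.86), with an inner edge 1623 bp further in. At Oas2, which makes the second messenger that activates RNase L, the tags were 323 and 128 (1.49) and the shift 2353 bp. Zbp1, a nucleic acid sensor, had 347 and 148 tags (1.38) and a shift of 2684 bp. Ifit1, which binds foreign RNA, had 207 and 106 tags (1.12) and a shift of 1192 bp. At Ly6e, which encodes a membrane protein that acts on virus entry, 600 tags over 5.45 kb in LPS stood against 332 over 2.01 kb in PBS. Its log2 ratio was 1.004 in tags and -0.43 per covered kb, and its inner edge lay 2762 bp further in. With a window of 5 kb Ly6e fell short of 2-fold, at 0.76. Per covered kb none of the 5 reached 2-fold, with 0.42 at Parp11, 0.25 at Oas2, 0.22 at Zbp1 and 0.03 at Ifit1. Oas3 lay just under the 2-fold threshold at 0.999, with 263 and 146 tags.

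Among the PBS-only genes, Ifit3 had 60 tags and Ifit2 55 within 1 kb in PBS. With a window of 5 kb Ifit3 had 90 tags after LPS and 60 after PBS (log2 ratio 0.74). Ifit2 had 30 and 90 in that window (-1.43). Trim30a, a ubiquitin ligase of the Trim family, had 115 tags in PBS and no LPS peak within 5 kb either.

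**Figure D5:**
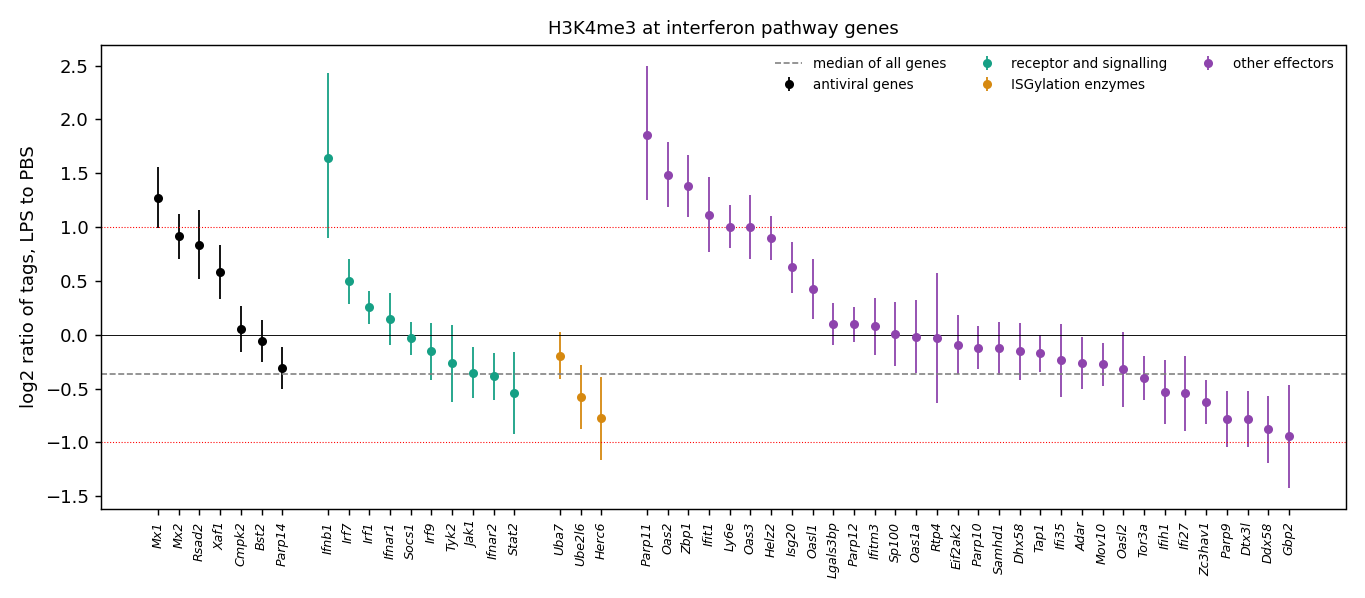
Points give the log2 ratio of H3K4me3 tags, LPS to PBS, for the 7 antiviral genes and other pathway genes with peaks in both lists (all but 1 that is not shown), with exact 95% counting intervals; the dashed line is the median of all genes (-0.36) and dotted lines mark 2-fold. Parp11, Oas2, Zbp1 and Ifit1 stand highest among the effectors with at least 100 tags, and the ISGylation enzymes lie at or below -0.19. The value for Uba7 comes from a peak that lies wholly outside the gene.

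Most genes of the receptor and its signalling lay closer to the median of all genes. Of the 11, all had peaks in both lists, 10 were tested and none was 2-fold different, with a median log2 ratio of -0.21. The gene with too few tags for the test was Ifnb1, which encodes interferon beta; its 59 tags in LPS and 21 in PBS gave the highest ratio of the list, 1.64 (0.90 to 2.43), or 0.10 per covered kb. The signal transducer Stat2 carried 96 tags after LPS and 155 after PBS (-0.54) and its partner Irf9 217 and 268 (-0.15). Irf7, the factor that amplifies interferon production, had 429 and 337 tags (0.50). The inner edge lay at least 500 bp further in at 3 of the 10 tested, against 3.45% of all tested protein-coding genes. These were Ifnar1, a receptor chain, by 866 bp, Irf1 by 1218 bp and Socs1, a feedback inhibitor, by 1127 bp. Both edges of Socs1, at 3902 bp in LPS and 2775 bp in PBS, lay beyond the other end of this short gene (10783808 to 10785536). The LPS peak there reached further past the gene, not further into it. The enzymes that couple ISG15 to its targets all had fewer tags assigned in LPS. The conjugating enzyme Ube2l6 had 151 and 250 tags (-0.58) and the ligase Herc6 89 and 169 (-0.78). For the activating enzyme Uba7 they were 302 and 383 (-0.19, -0.42 to 0.03). The peak assigned to Uba7 lay wholly outside the gene in both lists. Its inner edge was at -12 bp in LPS and -42 bp in PBS, and its summit at -1732 and -1759 bp. Whether this peak belongs to Uba7 was not tested.

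H3K9me3 was listed on none of the 10 gene bodies in either library. Among all protein-coding genes 35.0% had an H3K9me3 peak of either list on the body, and 23.2% of those no longer than Parp14, the longest of the 10 with 39627 bp. Within 5 kb of the body, peaks were listed near 3 of the 10 (Isg15, Mx2 and Xaf1), where 42.6% of protein-coding genes had one. At Isg15 the LPS list had 2 peaks of 22 and 17 tags and the PBS list 2 of 15 and 17, all of which overlapped the H3K4me3 peaks at Agrn or Perm1. At Xaf1 an LPS peak of 26 tags, 612 bp beyond the gene, overlapped the H3K4me3 peaks at the end of Fbxo39. The PBS peak near Mx2, with 14 tags 3514 bp away, met no H3K4me3 peak. The farthest antiviral gene from the mark in LPS was Ifi44, with the nearest H3K9me3 peak 107 kb away. Peaks of this mark were narrow, with median widths of 258 bp in LPS and 245 bp in PBS, and held 1.62% and 1.69% of the filtered tags, so a weak signal on these bodies may not have been detectable.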

How the data were processed

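Bowtie 0.12.8, CASAVA 1.4, DiffBind and MACS 1.4.2 and the build mm10 are named in the submitters' processing notes. Peaks were called by MACS library by library, per the file headers, without a control file, at a p threshold of 1e-05, a local background window of 10000 bp and at most 1 tag kept per position. The deposited tables give each peak's tag count, a score (minus 10 times the base 10 logarithm of the caller's p-value) and a fold enrichment, the ratio of the peak to its background in that library. Positions, widths and summits are also deposited values. The fold enrichment was not used, and the score only as a filter.

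Tag counts were scaled by filtered tags. Genes came from the RefSeq table of GRCm38.p6. Genes were tested for a 2-fold ratio where both lists had a peak and at least 100 tags in all. Length covered, inner edge and summit were read from the peaks within 1 kb of a gene end. The inner edge was added after seeing the data. It was not cut at the other end of the gene, so in a short gene it can lie beyond that end. The functions were tested on simulated data (Python 3.11.15, scipy 1.17.1). All 10 antiviral genes are described, and of the pathway genes those past 2-fold, those in 1 list only and, chosen after their values were seen, others named. Members and lists were chosen with earlier results of these data known. A few listed genes are counted but not reported here by name.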

Additional observations from a re-analysis of the deposited data

How the results depend on the processing

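No paired analysis was possible because each group held 1 library. The median log2 ratio of the genes with H3K4me3 peaks in both lists, 0.58, came to 0.68 when scaled by all tags, to 0.31 per covered kb and to 0.32 at annotated starts, where 4 of the 6 matched genes had peaks in both lists. It was 0.57 with a window of 5 kb and 0.58 in merged regions and at peaks of score 100 or more. The count of 1 gene 2-fold higher in LPS became 3 with the median of all genes set to 0 and 0 per covered kb; none was 2-fold higher in PBS under any alternative tried. Inner edges lay at least 500 bp further into the gene in LPS at 5 genes, and at 3 of the 4 with an annotated start. With a window of 5 kb the count was 7 of 9. It takes in Isg15 through peaks of Agrn and Perm1 that lie outside the gene. Bst2, at its other end, then had an edge farther in PBS (-1169 bp), and that PBS edge also lay outside the gene. With a threshold of 1000 bp the count was 4, where 1.33% of all tested genes passed. These edge alternatives were chosen after seeing the data. H3K9me3 peaks were near 3 genes, in place of 0, with 5 kb added on both sides of the body. Ratios of single genes stayed inside their counting interval for all 7 with a window of 5 kb or merged regions, and left it for 5 of the 7 per covered kb, a change built into dividing by the length called. With 1 library a group, how far another culture would differ is unknown.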
